A study of Homo sapiens with 9 samples.

Results

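The MYC, MAX and MXD network was followed as 10 genes chosen by symbol, MYC, MAX, MXD1, MXD3, MXD4, MXI1, MNT, MGA, MLX and MLXIP, out of 63677 gene IDs in the count files. All 10 matched a gene ID and passed the filter on low counts. Polyadenylated RNA was sequenced from 9 cultures of K562, a human erythroleukaemia line derived from chronic myeloid leukaemia. Of these, 4 were CRISPR clones carrying the P95H substitution in the splicing factor SRSF2 (P9, P15, P22 and P38), 1 was the parental line with wild-type SRSF2, and 4 were CRISPR clones whose SRSF2 is wild-type (called WT clones: W19, W33, W36 and W42). The labels give no treatment, time or passage, and 1 library was made per clone, so a p-value here sets a difference against clone-to-clone spread. Whether clones with the same genotype arose from independent edits is not stated. The aim stated for the series is the study of differential splicing, whereas the deposited values used here are reads per gene, so the question addressed is whether the level of each network gene differed.

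MYC is a transcription factor that binds the DNA motif CACGTG, the E-box, as a dimer with MAX and raises the transcription of genes for growth, ribosome production and nucleotide synthesis. MAX also pairs with the MXD proteins, with MXI1 and with MNT, which bring the SIN3 and histone deacetylase corepressor to the same motif, and with MGA, which belongs to a variant polycomb complex called PRC1.6. MLX is a MAX-like protein that pairs with MLXIP (MondoA), a sensor of glucose-derived metabolites, and with some MXD proteins. In blood cells MYC is known to fall and MXD1 to rise as cells stop dividing and mature.

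Reads counted in genes ranged from 24546255 to 35477328 per library. The unit of level is CPM, the count after TMM scaling brings all libraries to 1 common size, and a floor of 3 counts corresponded to 0.0846 to 0.122 CPM. Such floors cover counting error only. SRSF2 averaged 500 ± 64.1 CPM in P95H clones and 488 ± 28.5 CPM in WT clones (SD, n = 4 each), with 515 CPM in the parental line. This checks the level of the edited gene but not the substitution, which counts per gene cannot show. Among WT clones W33 stood apart. Set against the other WT clones, W33 had 2457 of 18173 genes past an adjusted p of 0.05 in the edgeR quasi-likelihood test, which is 13.5%. The share was 0% for W19, 0% for W36 and 0.022% for W42 among WT clones. It was 0% for P9, 0.0055% for P15, 0.369% for P22 and 0% for P38 among P95H clones. All 18 erythroid markers passed the filter, with summed levels of 2501 to 7752 CPM in P95H clones, 3229 CPM in the parental line and 2469 to 5149 CPM in WT clones. Markers of other lineages were lower: 12 of granulocytes and monocytes summed to 49.2 to 138 CPM in P95H clones and 61.1 to 84.2 CPM in WT clones, 11 of megakaryocytes to 39.7 to 60.1 CPM in P95H clones and 21.2 to 29.05 CPM in WT clones, and 7 of lymphocytes to 8.04 to 25.1 CPM in P95H clones and 14.7 to 34.6 CPM in WT clones. Of 10 fibroblast and epithelial markers, summed at 479 to 839 CPM in P95H clones and 815 to 1367 CPM in WT clones, the keratins KRT8 and KRT18 made up most. The defining genes MS4A1, PF4 and LUM had no read in any library.

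Per kb of exon, the scale on which genes can be compared, MYC was the highest of the 10 genes, at 98.3 ± 7.74 CPM per kb (SD over 8 clones). MXD3 followed at 22.02 ± 6.11 and MLX at 19.8 ± 1.92 CPM per kb, which overlap each other within their spread. MAX stood below both at 11.8 ± 1.32 CPM per kb, and MLXIP at 6.90 ± 0.593. The 5 lowest were MXI1 at 5.35 ± 0.684, MGA at 4.25 ± 0.732, MXD1 at 4.08 ± 1.43, MNT at 2.68 ± 0.307 and MXD4 at 2.47 ± 0.790 CPM per kb. In this order each neighbouring pair from MXI1 down to MXD4 differed by less than the sum of its SDs. MYC and MXD3, MLX and MAX, MAX and MLXIP, and MLXIP and MXI1 differed by more. The means over 8 clones pool groups whose order differed. MLX was above MXD3 in every P95H clone (means 21.3 ± 1.36 and 18.4 ± 1.90 CPM per kb). It was below MXD3 in every WT clone (18.3 ± 0.691 and 25.65 ± 6.95). MXD1 averaged 5.205 ± 1.05 in P95H clones, above MGA at 4.59 ± 0.541. In WT clones MXD1 averaged 2.95 ± 0.540, below MGA at 3.91 ± 0.804.

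**Figure D1:**
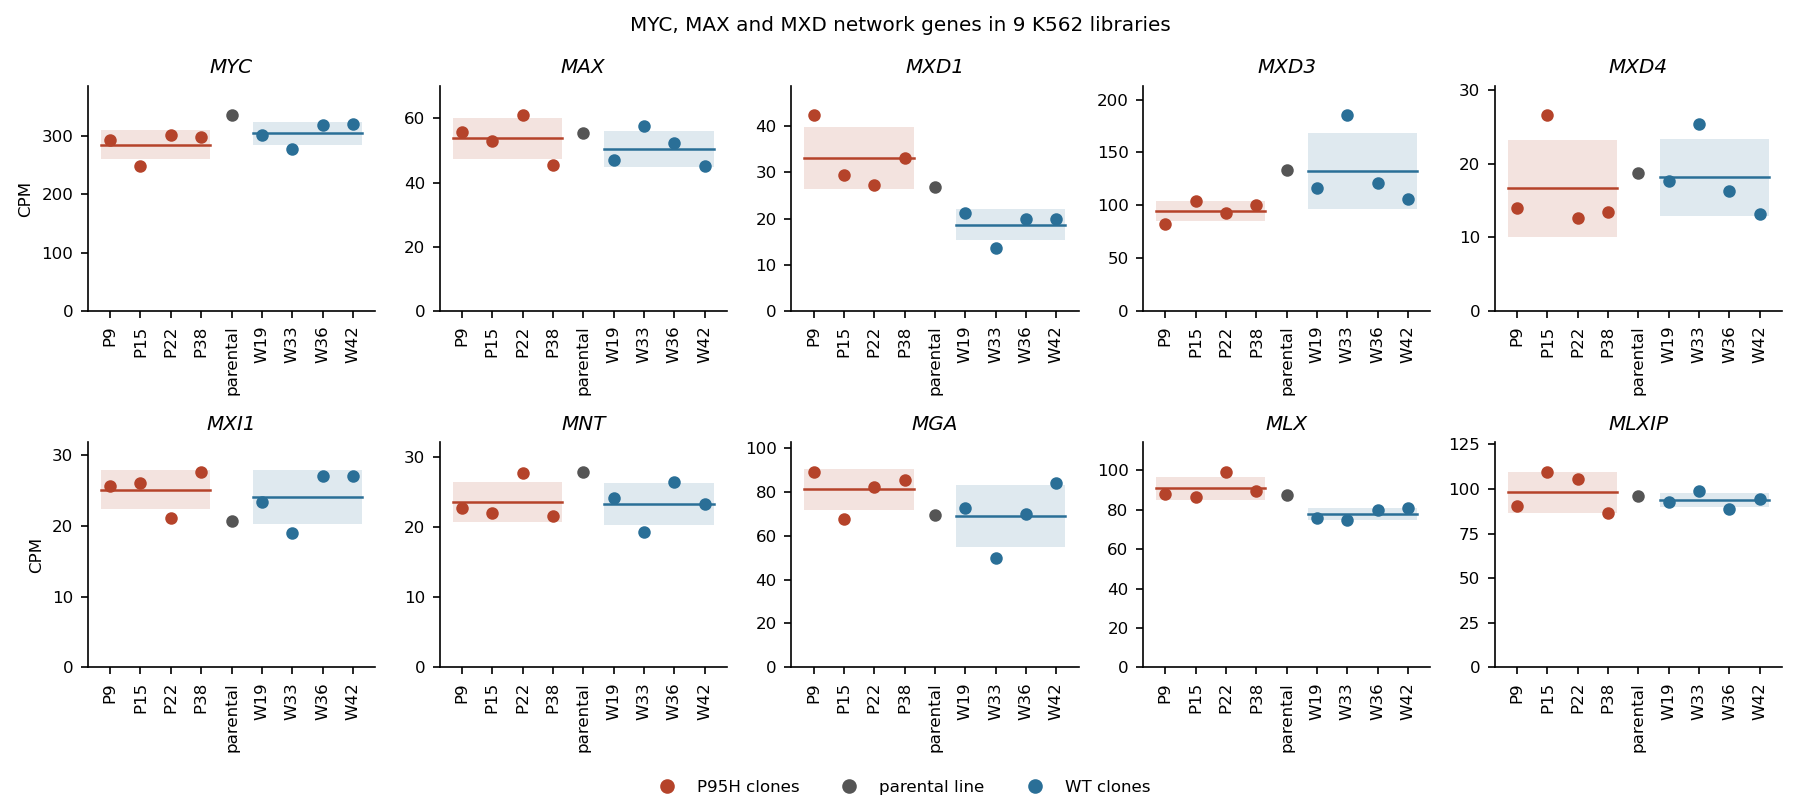
CPM of each of the 10 network genes (y axes start at 0) in every library, with P95H clones in red, the parental line in grey and WT clones in blue; lines and bands give the mean and SD of the 4 clones of a group. MXD1, MXD3 and MLX are the 3 genes whose P95H and WT clones do not overlap, and MXD1 lies between 27.2 and 42.4 CPM in P95H clones, against 13.7 to 21.3 CPM in WT clones.

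No network gene passed an adjusted p of 0.05 in edgeR between P95H and WT clones. The same test called 0 of 18173 genes (0%), with 2130 genes, or 11.7%, at an unadjusted p under 0.05, while DESeq2 called 261 genes and limma-voom with quality weights called 59. MXD1 was the 1 network gene called by DESeq2, and by limma-voom as well. The 4 values of each group did not overlap for 3 of the 10 network genes, MXD1, MXD3 and MLX, against 1540 of all genes tested (8.47%). In bulk samples fewer cells of a type and less RNA per cell cannot be told apart, and this holds for every difference below.

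MYC stood at 293 (P9), 249 (P15), 302 (P22) and 298 CPM (P38) in P95H clones, against 302 (W19), 277 (W33), 319 (W36) and 320.2 CPM (W42) in WT clones. The groups overlapped, with P15 the lowest of all libraries. The log2 difference was -0.09 (SE 0.10, 95% interval -0.32 to 0.14; edgeR adjusted p = 0.754). The parental line had the highest MYC of the 9 libraries, at 335 CPM. Around MYC on chromosome 8, the 10 genes on each side had a median log2 deviation from the WT mean of 0.12 to 0.33 in P95H clones, -0.04 in the parental line and -0.30 to 0.16 in WT clones. MYC itself was below the WT mean in all 4 P95H clones, with log2 deviations of -0.29 to -0.01.

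MAX, the shared partner of the network, averaged 53.8 ± 6.44 CPM in P95H clones and 50.5 ± 5.57 CPM in WT clones (SD, n = 4 each), and the groups overlapped (log2 difference 0.10, SE 0.12; edgeR adjusted p = 0.781). The ratio of MYC to MAX per kb of exon was 6.91 to 9.69 in P95H clones, 8.93 in the parental line and 7.11 to 10.47 in WT clones.

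MXD1, the MXD family member known for its rise in maturing myeloid cells, stood at 42.4 (P9), 29.5 (P15), 27.2 (P22) and 33.2 CPM (P38) in P95H clones, against 21.3 (W19), 13.7 (W33), 20.01 (W36) and 19.9 CPM (W42) in WT clones. Every P95H clone was above every WT clone, and the parental line, at 26.8 CPM, lay between the groups and just under the lowest P95H clone. The log2 difference was 0.82 (SE 0.19, 95% interval 0.40 to 1.24), a fold of 1.77. It ranked 81 of 18173 genes by p, with an unadjusted p of 0.00142 and an adjusted p of 0.282 in edgeR. DESeq2 gave an adjusted p of 0.00984 and limma-voom 0.0495. An exact two-sided permutation test over 70 labelings of the clones gave p = 0.0286, the smallest it can give. Groups without overlap always give this p, as they did for MXD3 and MLX, so it only restates the lack of overlap. Without W33, the lowest clone, the log2 difference was 0.70 (edgeR adjusted p = 0.255), and with each clone left out in turn it was 0.67 to 0.91. With the parental line counted as wild type the difference was 0.70 (adjusted p = 0.189).

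MXD3, an MXD protein known to be made in dividing cells, stood at 82.1 (P9), 104 (P15), 92.6 (P22) and 100.3 CPM (P38) in P95H clones, against 117 (W19), 185 (W33), 121 (W36) and 106 CPM (W42) in WT clones. All P95H clones were below all WT clones, but the gap between P15 and W42 was narrower than the spread within either group. The log2 difference was -0.47 (SE 0.17; edgeR unadjusted p = 0.0199, adjusted p = 0.351), and it was -0.27 without W33 (adjusted p = 0.322). The parental line, at 133 CPM, was within the range of WT clones. Exons of MXD3 share 22.5% of their bases with PRELID1, which lies on the other strand and encodes a mitochondrial lipid transfer protein, and 18.0% with RAB24 on the same strand. PRELID1 averaged 121 ± 12.3 CPM in P95H clones and 163 ± 40.0 CPM in WT clones (SD, n = 4 each), a log2 difference of -0.43 (SE 0.16), and like MXD3 it was highest in W33, at 223 CPM. RAB24 averaged 5.98 ± 0.538 CPM in P95H clones and 5.89 ± 1.10 CPM in WT clones. The sources used here do not give the strand setting of the counts, and the part of PRELID1 reads in the MXD3 value was not tested.

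**Figure D2:**
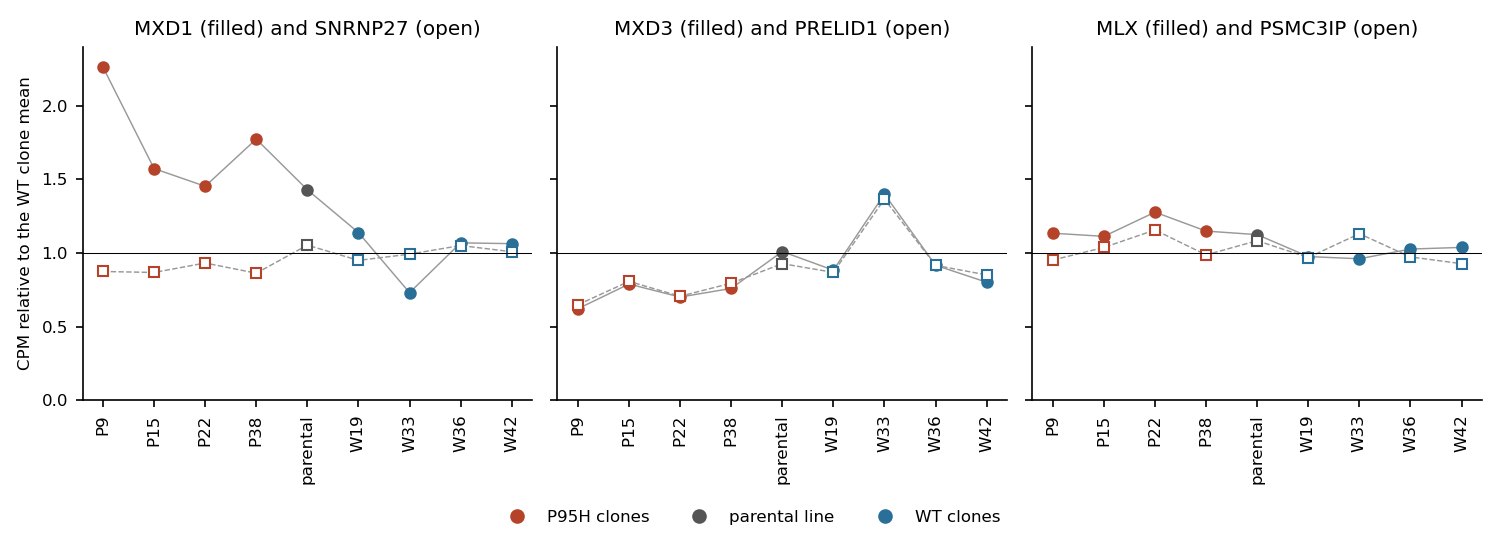
CPM relative to the mean of the 4 WT clones (y axis, from 0) in each library for MXD1, MXD3 and MLX (filled circles) and for the protein-coding gene that shares exon bases with each (open squares). MXD3 and PRELID1 run together in all 9 libraries, whereas MXD1 and SNRNP27 differ in direction between P95H and WT clones.

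MXD1 shares 3.73% of its exon bases with SNRNP27, a gene for a splicing-associated protein on the same strand, which averaged 26.5 ± 0.969 CPM in P95H clones and 30.0 ± 1.25 CPM in WT clones (log2 difference -0.18, SE 0.10). The MXD1 difference was opposite in sign to that of SNRNP27, and the part of SNRNP27 reads in the MXD1 value was not tested. The 10 genes on each side of MXD1 on chromosome 2 had a median log2 deviation between -0.02 and 0.07 in P95H clones and between -0.03 and 0.02 in WT clones.

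MXD4 stood at 14.0 (P9), 26.6 (P15), 12.6 (P22) and 13.5 CPM (P38) in P95H clones, against 17.6 (W19), 25.5 (W33), 16.4 (W36) and 13.2 CPM (W42) in WT clones. P15 and W33 were the high clone of their group and the groups overlapped (log2 difference -0.12, SE 0.28; edgeR adjusted p = 0.892). MXI1, which also recruits SIN3, averaged 25.2 ± 2.81 CPM in P95H clones and 24.2 ± 3.82 CPM in WT clones (log2 difference 0.06, SE 0.15; adjusted p = 0.897). The sign of both changed when W33 was left out, to 0.08 for MXD4 and -0.04 for MXI1.

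Of the summed MXD family per kb of exon (MXD1, MXD3, MXD4 and MXI1), MXD1 made up 13.5 to 22.1% in P95H clones, 11.3% in the parental line and 4.70 to 9.99% in WT clones. MXD3 made up 52.8 to 62.7% in P95H clones, 69.5% in the parental line and 65.3 to 78.4% in WT clones. MXD3 was the most abundant of the 4 in every library. The ratio of MYC to MXD1 per kb was 14.6 to 23.5 in P95H clones, 26.5 in the parental line and 30.0 to 42.9 in WT clones. The shares restate the differences of MXD1 and MXD3 together, since MXD3 is the largest part of the sum and was lower in P95H clones. The ratio of MYC to MXD1 mainly restates the MXD1 difference. None of these values was given a test. The part of PRELID1 reads in the MXD3 value, and so in the shares, was not tested.

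**Figure D3:**
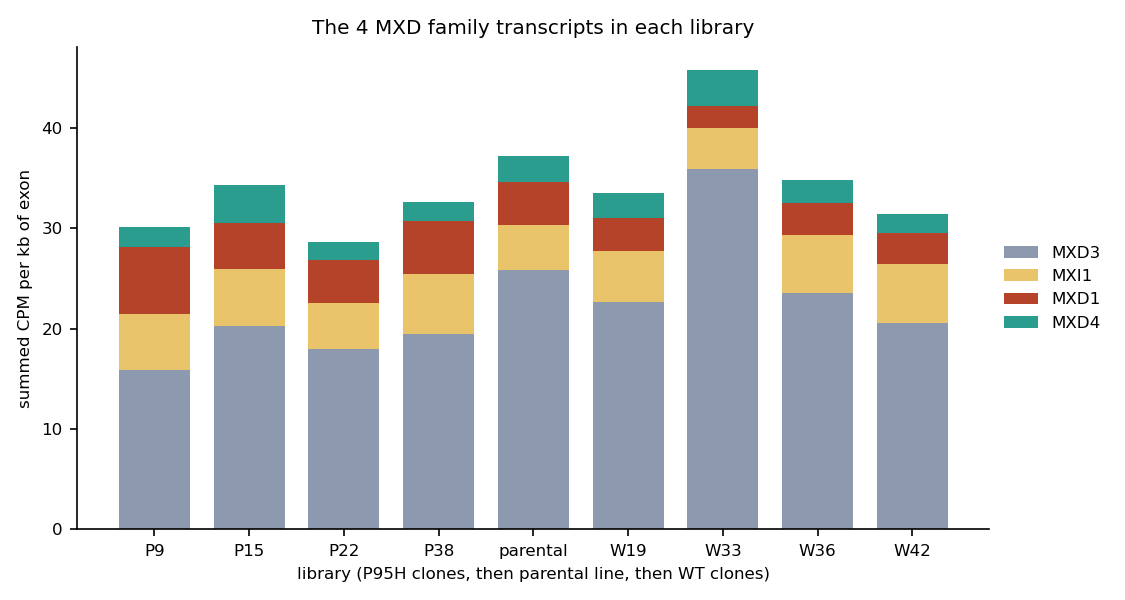
CPM per kb of exon (y axis, from 0) of MXD3, MXI1, MXD1 and MXD4 stacked for each library, P95H clones first, then the parental line and WT clones. MXD1 takes a larger share in all 4 P95H clones, at 13.5 to 22.1% of the sum, than in WT clones, at 4.70 to 9.99%. MXD3, the largest part of the sum, is also lower in every P95H clone than in every WT clone. The sum is largest in W33 at 45.8 CPM per kb.

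MNT, a MAX partner that represses and is present in dividing and resting cells, averaged 23.5 ± 2.81 CPM in P95H clones and 23.3 ± 2.96 CPM in WT clones (log2 difference 0.02, SE 0.14, 95% interval -0.30 to 0.33; edgeR adjusted p = 0.973). Its sign turned without W33, to -0.07, and with limma-voom, to -0.11. MGA stood at 89.2 (P9), 67.4 (P15), 82.1 (P22) and 85.5 CPM (P38) in P95H clones, against 72.5 (W19), 49.7 (W33), 69.7 (W36) and 83.8 CPM (W42) in WT clones. The groups overlapped, with W33 the lowest clone (log2 difference 0.23, SE 0.17; adjusted p = 0.594), and the difference was 0.10 without W33.

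MLX stood at 88.3 (P9), 86.6 (P15), 99.4 (P22) and 89.4 CPM (P38) in P95H clones, against 75.9 (W19), 74.7 (W33), 79.9 (W36) and 80.7 CPM (W42) in WT clones. All P95H clones were above all WT clones and the WT clones differed little among themselves. The parental line, at 87.5 CPM, was within the range of P95H clones and above every WT clone. The log2 difference was 0.23 (SE 0.09, 95% interval 0.02 to 0.43), with an unadjusted p of 0.0334 and an adjusted p of 0.391 in edgeR, and 0.18 to 0.25 with each clone left out in turn. MLX shares 18.1% of its exon bases with PSMC3IP on the other strand, a gene for a recombination cofactor, which averaged 50.3 ± 4.35 CPM in P95H clones and 48.7 ± 4.36 CPM in WT clones. MLXIP averaged 98.2 ± 11.4 CPM in P95H clones and 93.7 ± 4.01 CPM in WT clones (log2 difference 0.07, SE 0.11; adjusted p = 0.814).

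**Figure D4:**
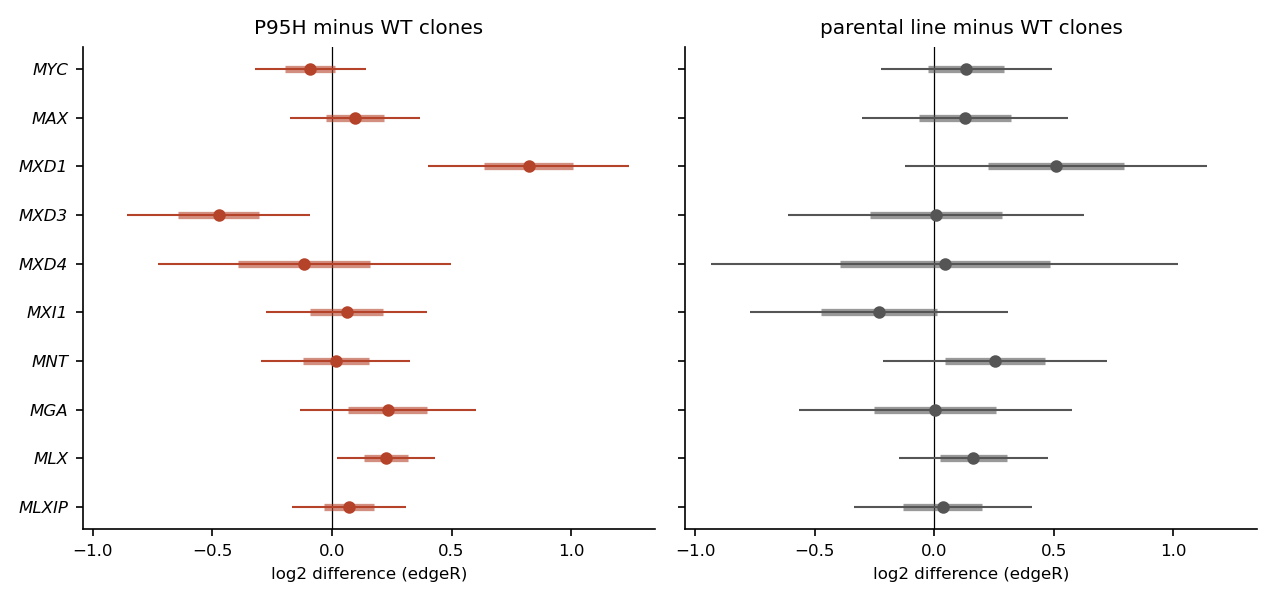
Log2 differences of the 10 genes fitted by edgeR (x axis), P95H minus WT clones on the left and the parental line minus WT clones on the right; points are estimates, thick bars the SE and thin bars the 95% interval. No gene passed an adjusted p of 0.05 in edgeR in either panel, and MXD1 has the largest difference in both, 0.82 and 0.51.

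ARRDC4, an arrestin-family gene that MLXIP and MLX switch on in response to glucose, averaged 16.6 ± 3.15 CPM in P95H clones and 11.5 ± 1.45 CPM in WT clones (SD, n = 4 each). The groups did not overlap, with a log2 difference of 0.53 (SE 0.17; edgeR unadjusted p = 0.0105, adjusted p = 0.333). The other glucose-response target listed, TXNIP, was not analysed here. Of the paralogs, MYCN had no read in any library. MYCL averaged 10.97 ± 1.39 CPM in P95H clones and 9.97 ± 2.89 CPM in WT clones. MLXIPL, the liver-type relative of MLXIP, averaged 14.4 ± 11.3 CPM in P95H clones and 24.03 ± 6.48 CPM in WT clones, and ranged from 2.12 CPM in P22 to 28.8 CPM in P15 within the P95H clones alone.

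Promoter windows from RefSeq (GRCh38.p14, 250 bases before to 50 after a transcript start) were searched for the E-box CACGTG, whose letters read the same on both strands. It was found in 7.26% of all 35116 windows, and among the 9 network genes with a window it was found for MLX, MNT and MXD4. The windows shown are those of the 3 network genes whose groups did not overlap and of the glucose-response target, with an E-box in capitals. They lie on chromosome 2 plus strand (MXD1), chromosome 5 minus strand (MXD3), chromosome 17 plus strand (MLX) and chromosome 15 plus strand (ARRDC4), and are written from 5′ to 3′ along the gene.
MXD1 (chr2:69914859-69915158): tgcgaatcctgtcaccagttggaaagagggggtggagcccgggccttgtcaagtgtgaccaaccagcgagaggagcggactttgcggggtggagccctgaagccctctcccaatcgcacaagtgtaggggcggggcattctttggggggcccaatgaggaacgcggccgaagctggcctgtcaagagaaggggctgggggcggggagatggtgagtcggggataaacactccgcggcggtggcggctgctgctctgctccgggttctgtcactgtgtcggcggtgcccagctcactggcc
MXD3 (chr5:177312703-177313002): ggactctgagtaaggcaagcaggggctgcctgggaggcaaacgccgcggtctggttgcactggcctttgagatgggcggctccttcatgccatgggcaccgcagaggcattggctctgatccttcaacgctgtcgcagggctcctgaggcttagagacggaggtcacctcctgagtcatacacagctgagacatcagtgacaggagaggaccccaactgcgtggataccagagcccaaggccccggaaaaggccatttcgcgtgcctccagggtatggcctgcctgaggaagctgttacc
MLX (chr17:42566850-42567149): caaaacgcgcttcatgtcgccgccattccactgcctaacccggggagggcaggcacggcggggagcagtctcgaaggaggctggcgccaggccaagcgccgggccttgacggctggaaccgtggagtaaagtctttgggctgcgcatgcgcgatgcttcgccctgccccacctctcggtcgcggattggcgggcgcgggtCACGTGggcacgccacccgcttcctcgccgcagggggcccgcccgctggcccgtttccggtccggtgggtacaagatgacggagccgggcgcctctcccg
ARRDC4 (chr15:97960453-97960752): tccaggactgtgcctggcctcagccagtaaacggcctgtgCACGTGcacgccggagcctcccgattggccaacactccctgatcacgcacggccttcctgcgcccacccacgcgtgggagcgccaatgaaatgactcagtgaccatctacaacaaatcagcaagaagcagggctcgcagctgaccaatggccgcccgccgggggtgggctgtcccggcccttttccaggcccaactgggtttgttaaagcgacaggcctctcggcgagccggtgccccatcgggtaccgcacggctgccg
The E-box in the MLX window begins 50 bases before the start, that of ARRDC4 begins 210 bases before it, and these letters were not found in the windows of MXD1 and MXD3. Of 32 listed MYC-driven genes with a window, 19 held the E-box (59.4%), against 8.77% of all genes with a window.

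The parental line was set against the WT clones in a model of 3 groups, where the spread of the parental line, a single library, was taken from the clones. The edgeR test called 1 of 20636 genes (0.00485%) and none of the 10 network genes. None of the 10 had an unadjusted edgeR p under 0.05, against 354 of the 20636 genes, and nothing is read from this count. DESeq2 called 7 genes. MXD1 showed the largest log2 difference of the network, 0.51 (SE 0.28, 95% interval -0.12 to 1.14), and MXI1 the lowest, -0.23 (SE 0.24). MNT was 27.9 CPM in the parental line, the highest of the 9 libraries as for MYC, against 23.3 ± 2.96 CPM in WT clones (SD, n = 4).

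Single clones were then tested against the remaining clones of the same genotype, on the assumption that 1 clone varies as much as the rest. Of 80 comparisons of a network gene in a clone, edgeR called 1, MXD3 in W33, where 13.5% of all genes were called. MXD3 was 185 CPM in W33, against 115 ± 7.84 CPM in the other WT clones (SD, n = 3), a log2 difference of 0.67 (SE 0.14; edgeR adjusted p = 0.0256). The adjusted p rose above the threshold when W19, W36 or W42 was left out, to between 0.0571 and 0.0782. The 10 genes on each side of MXD3 on chromosome 5 had a median log2 deviation of 0.30 in W33 and of -0.11 to -0.07 in the other WT clones. In the same clone MGA had a log2 difference of -0.62 (SE 0.18; adjusted p = 0.0576), and DESeq2 called it (adjusted p = 0.0193). In P15, MXD4 stood 0.99 above the other P95H clones on the log2 scale (SE 0.30; adjusted p = 0.390), at 26.6 CPM against 13.4 ± 0.677 CPM (SD, n = 3). An unadjusted p under 0.05 was reached by 4 of the 10 network genes in W33, against 32.4% of all genes, by 1 in P15, against 7.82% of all genes, and by none in the other 6 clones.

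Across the 8 clones MYC was related to each of the other 9 network genes by log2 CPM. None of the 9 relations passed an adjusted p of 0.05 in an exact permutation test of Pearson's r. The largest was with MXD4, r = -0.79 (exact permutation p = 0.0189, adjusted p = 0.170) and Spearman's rho = -0.57 (exact permutation p = 0.151, adjusted p = 0.513). It rested on P15 and W33, the 2 clones farthest from the median MYC level, since r was 0.15 without them. Without the same 2 clones r with MYC was -0.86 for MXD1 and 0.69 for MXD3, against -0.14 and -0.15 over all 8 clones. Within each group the signs were opposite to those without the 2 clones. For MXD1, r was 0.22 within P95H clones and 0.85 within WT clones, and for MXD3 it was -0.55 and -0.92. These values thus rest on the choice of clones and also carry the difference between groups. Among pairs without MYC, given as a description over 8 clones that share the group difference and W33, MXD3 ran against MGA (r = -0.93) and MXD1 (r = -0.90), and MXD1 ran with MGA (r = 0.76) and MLX (r = 0.72).

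Genes that share the network's work were described by list. None of their genes was called by edgeR or limma-voom between P95H and WT clones, and DESeq2 called 1, CAD, against 261 of all 18173 genes. An unadjusted edgeR p under 0.05 was reached by 2 MYC cofactors, 2 turnover genes, 1 SIN3 gene, 1 PRC1.6 gene, 4 MYC-driven genes and 0 genes held down by MYC, against 11.7% of all genes, and nothing is read from these counts. Of 14 MYC cofactors, 8 lay above 0 and 6 below, with a median log2 difference of 0.02 against 0.01 over all genes. RUVBL2, an ATPase of chromatin remodelling complexes, averaged 226 ± 19.1 CPM in P95H clones and 326 ± 93.4 CPM in WT clones (log2 difference -0.53, SE 0.17; unadjusted p = 0.0126), with 465 CPM in W33. BPTF and EP300, a remodelling factor and a histone acetyltransferase, had log2 differences of 0.31 (SE 0.19) and 0.30 (SE 0.24).

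Of 10 genes that set MYC turnover, 5 lay above 0 and 5 below. HUWE1, a ubiquitin ligase with MYC among its substrates, averaged 403 ± 48.5 CPM in P95H clones and 303 ± 44.4 CPM in WT clones, without overlap (log2 difference 0.42, SE 0.14; edgeR unadjusted p = 0.0140, adjusted p = 0.338). TRIM32, another ligase, had a log2 difference of 0.44 (SE 0.18). The kinases GSK3B and GSK3A, which mark MYC for degradation, differed by 0.20 (SE 0.11) and -0.16 (SE 0.09), each without overlap of the groups. Of 13 SIN3 corepressor genes, 7 lay above 0 and 6 below, and the lowest p was that of the deacetylase HDAC2, at 226 ± 22.5 CPM in P95H clones and 270.2 ± 16.8 CPM in WT clones (log2 difference -0.26, SE 0.11). Of 9 PRC1.6 genes, 6 lay above 0 and 3 below, and RYBP averaged 47.4 ± 17.8 CPM in P95H clones, with 73.0 CPM in P22, and 30.8 ± 3.64 CPM in WT clones (log2 difference 0.62, SE 0.23).

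Of 40 genes known to be driven by MYC, 39 were tested (BOP1 was not analysed here), and 6 lay above 0 and 33 below, with a median log2 difference of -0.18 against 0.01 over all genes. Without W33 the split was 8 above and 31 below and the median -0.08, and without W33 and P22, a choice made after seeing the data, 9 and 30 with a median of -0.09. Clones of the 2 groups overlapped in the list's median log2 deviation from the WT mean. P15 (-0.269), P9 (-0.209) and P22 (-0.14) lay below every WT clone. P38, at 0.014, lay above W19 (-0.082), W42 (-0.058) and W36 (-0.025), and only W33 was higher, at 0.215. The lower median of the group was thus not shared by all P95H clones. The gene of the list with the smallest p lay above 0. CAD, the enzyme that starts pyrimidine synthesis, stood at 250.1 (P9), 193 (P15), 217 (P22) and 231 CPM (P38) in P95H clones, against 171 (W19), 156 (W33), 162 (W36) and 170.1 CPM (W42) in WT clones. The groups did not overlap (log2 difference 0.44, SE 0.11; edgeR unadjusted p = 0.00217, adjusted p = 0.286), and DESeq2 called CAD. PES1, a ribosome assembly factor, averaged 139 ± 5.01 CPM in P95H clones and 189 ± 40.8 CPM in WT clones (log2 difference -0.44, SE 0.14). CCND2, cyclin D2, averaged 80.0 ± 34.1 CPM in P95H clones and 142 ± 22.6 CPM in WT clones (log2 difference -0.82, SE 0.30), with 34.5 CPM in P22. TERT, the catalytic part of telomerase, averaged 7.86 ± 1.78 CPM in P95H clones and 11.99 ± 4.67 CPM in WT clones (log2 difference -0.60, SE 0.26).

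In W33 set against the other WT clones, 7 of the 39 MYC-driven genes were called by edgeR, 6 of them higher and 1 lower, against 1119 higher and 1338 lower among all 18173 genes. The number was 0 without W42, 1 without W19 and 1 without W36, and 4 to 15 under the other settings tried. The 7 genes are named after their values were seen. FBL, the nucleolar methyltransferase fibrillarin, was 718 CPM in W33, against 386 to 438.5 CPM in the other WT clones (log2 difference 0.79, adjusted p = 0.0151). NOP56, RRP9, RRS1, IMPDH2 and PES1 had log2 differences of 0.42 to 0.60, and PPAT, the first enzyme of purine synthesis, had one of -0.68. MYC itself was 277 CPM in W33, the lowest of the WT clones (log2 difference -0.20, SE 0.14; adjusted p = 0.342).

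Of 11 genes known to be held down by MYC, 9 were tested, and 8 lay above 0 and 1 below, with a median log2 difference of 0.17. Without P15 the split was 4 above and 5 below and the median -0.03. By clone, the list's median log2 deviation from the WT mean was 0.86 in P15, 0.18 in P38, -0.003 in P9 and -0.68 in P22, against -0.24 to 0.25 in WT clones. BTG2 and BTG1, which slow cell division, were highest in P15, at 51.6 and 40.3 CPM, the clone with the lowest MYC. Erythroid markers were also highest in this clone, with a list median of 1.30 in P15, 0.86 and 0.88 in P38 and P9, -0.15 in P22, 0.65 in W33 and -0.34 to -0.19 in the other WT clones. Over the groups, 15 of 18 erythroid markers lay above 0 (median log2 difference 0.93), and all 18 did without W33 (1.42). EdgeR called 0 of the 18, and 8 had an unadjusted edgeR p under 0.05, against 11.7% of all genes. DESeq2 called 3 (AQP1, CA1 and SLC4A1) and limma-voom 2 (AQP1 and CA1), against 261 and 59 of all genes. CA1 and SLC4A1 had few reads in WT clones. CA1 was 0 to 0.884 CPM in WT clones and 1.30 to 3.55 CPM in P95H clones. It passed the filter through the P95H clones, where it was high, so its call is no separate support. SLC4A1 was 0.219 to 0.619 CPM in WT clones and 0.425 to 12.1 CPM in P95H clones. Of the megakaryocyte markers 4 of 11 passed the filter, all above 0 (median log2 difference 0.94), and DESeq2 called TUBB1. Of the fibroblast and epithelial markers 5 of 10 passed it, all below 0 (median -0.67), and DESeq2 called KRT8. The medians were 0.42 over 7 granulocyte and monocyte markers, of which DESeq2 called CSF3R, and -0.12 over 5 lymphocyte markers. The part of these markers in the values of the network genes was not tested.

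**Figure D5:**
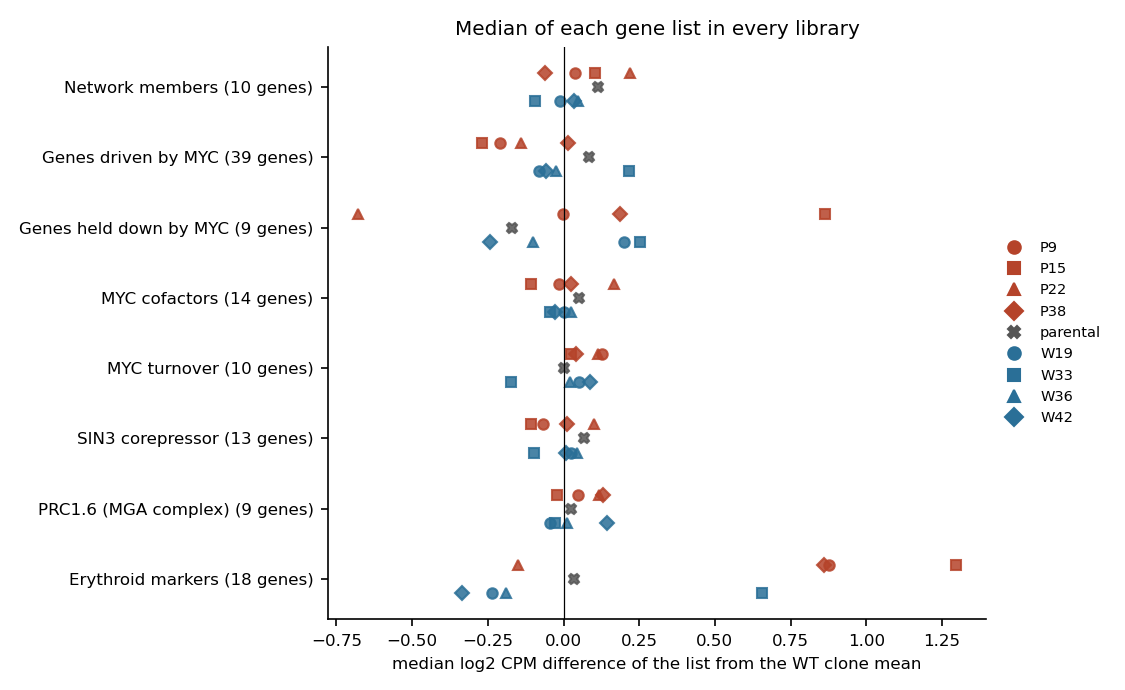
Median log2 CPM difference from the mean of the WT clones (x axis) over the tested genes of each list (rows), 1 point per library, P95H clones above the parental line and WT clones. MYC-driven genes sit lowest in P15 and highest in W33, and genes held down by MYC are spread from -0.68 in P22 to 0.86 in P15.

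The genes whose level ran most like MYC over the 9 libraries, ranked over the 11742 genes that averaged 5 CPM or more, were INTS13 (r = 0.97), SRSF1 (r = 0.96), ZC3H15 and LTV1 (r = 0.95 each) and HNRNPLL (r = 0.95). SRSF1 is a splicing factor of the same family as SRSF2. Most like MXD1 were SLC25A21 (r = 0.99), THAP9 (r = 0.96), AL356968.2 (r = 0.96), AC008040.5 (r = 0.96) and AP4B1-AS1 (r = 0.95). The 9 points share the difference between groups and W33, and the values of r are a description only.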

How the data were processed

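The deposited values are raw counts of reads per Ensembl gene, 1 table per library, with no normalization by the authors. TruSeq libraries of polyadenylated RNA, taken from miRNeasy extracts, were run on a HiSeq2000 per the labels' protocols. The tools were bcl2fastq, HTSeq 0.6.1p1 and TopHat2 2.0.4, on build GRCh37, per the submitters' processing notes, and gene IDs follow Ensembl release 75 per the file labels. The sources used here do not give the counting mode or the strand setting. Reads in exon bases shared by genes on either strand may thus be left out as ambiguous or counted for the other gene. Values per kb divide by the full exon length and were not corrected for this. The 5 summary lines of each table stayed out of library sizes and tests (no feature 47.6 to 49.1% of reads, ambiguous 2.23 to 2.55%, not unique 5.05 to 6.06%), which left 43.3 to 44.2% in genes. Symbols and exon lengths came from GENCODE 29 by gene ID (52526 of 63677 matched). The exon overlaps and the order of neighbouring genes rest on its GRCh38 coordinates, not on the annotation used for counting. Promoter coordinates are those of RefSeq on GRCh38.p14, not of the build of the counts.

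Groups came from sample titles, and the labels name no batch. The main test was edgeR 4.0.16 (R 4.3.3): filterByExpr, TMM, robust quasi-likelihood fit and F test, with Benjamini-Hochberg adjustment over all genes tested and a threshold of 0.05. Log2 CPM used a prior count of 2. The alternatives tried were upper quartile and RLE scaling, a filter of 1 CPM in 4 libraries, no filter, DESeq2 1.42.0, limma-voom 3.58.1, an exact permutation test over 70 labelings, other uses of the parental library, and each clone, or W33 and P22 together, left out. Simulated counts gave every gene the same spread and held no clone that stood apart like W33, so the shares recovered need not hold for these data. On simulated counts for P95H against WT clones (18407 genes), 56.5% of genes changed by 1 on the log2 scale were recovered and 98.4% of those changed by 2. Changes of 1 were recovered for 11.8% of genes in the parental line against WT clones (20098 genes) and for 4.76% in a single clone (18413 genes). No library pair had identical counts, and chi-square per degree of freedom between clones of a group was 11.1 to 108.6. All members are named, then per list up to 4 genes by smallest p, of which 1 is not reported here, and for MYC and MXD1 the 5 genes most like them. Members and lists were chosen with earlier results of these data known.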

Additional observations from a re-analysis of the deposited data

Results flagged for a closer look

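In 12 of 114 groups of 4 clones the highest or lowest clone lay far from the other 3 relative to the range of the group, which chance gives in about 1 in 20 groups. The groups were those of the network genes and of up to 4 genes per list with the smallest p. Many were thus picked from these data, and all draw on the same clones, so the count cannot be read against that rate. Among the network genes the far clone was P15 for MYC, at 248.6 CPM with the other P95H clones at 293 to 301.6 CPM. It was also P15 for MXD4, at 26.58 CPM with the others at 12.65 to 13.98 CPM. The edgeR test of P15 against the other P95H clones called neither (adjusted p = 0.795 for MYC and 0.390 for MXD4).

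Of the other listed genes, W33 was far from the other WT clones for PES1 (249.5 CPM), RUVBL2 (465.4 CPM), BPTF (51.21 CPM), ITGA2B (16.58 CPM), CD3E (1.415 CPM) and CA1 (0.8844 CPM). Among P95H clones, P15 was far from the others for AQP1 (66.77 CPM) and CD7 (2.535 CPM), P22 for CSF3R (9.978 CPM), and P9 for GSK3A (62.56 CPM). These are values of single libraries, and no explanation was tested.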

How the results depend on the processing

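Among 18 alternatives for each network gene between P95H and WT clones, MYC, MAX, MGA and MLXIP kept their direction and stayed uncalled, and MXD1, MXD3 and MLX kept their direction. The number of genes called between P95H and WT clones was 2 with no filter, 261 with DESeq2 (148 higher, 113 lower), 59 with limma-voom, 5 without W33 and P22, and 0 to 1 with each clone left out. DESeq2 and limma-voom each called 1 network gene, MXD1. For the parental line the count was 5 with no filter, 0 with a filter of 1 CPM in 4 libraries, 7 with DESeq2, 0 with the parental and WT libraries only, and 0 to 2 with each clone left out. Calls of network genes in single clones numbered 2 with no filter and 2 with DESeq2 (MXD3 and MGA in W33), and 0 to 3 with each clone left out; without P15 they were MXD3, MXD4 and MGA, all in W33. The total for W33 was 703, 262 and 0 genes without W19, W36 and W42, and the cause was not tested.

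Signs turned for small differences. Between P95H and WT clones, MNT was -0.00138 with upper quartile scaling, -0.11 with limma-voom, -0.0458 with the parental line as wild type, -0.15 without W33 and P22, and -0.072 to 0.0703 with each clone left out. MXI1 was -0.00882 with limma-voom and -0.0397 to 0.134 with each clone left out, and MXD4 was 0.199 without W33 and P22 and -0.434 to 0.0829 with each clone left out. For the parental line, MGA was -5.94e-05 with the parental and WT libraries only and -0.13 to 0.114 with each clone left out, MXD3 was -0.0833 to 0.209 and MXD4 -0.0798 to 0.244. Correlations with MYC over all 9 libraries were 0.0121 for MXD3, -0.026 for MXI1 and 0.0211 for MLX, and with each clone left out -0.403 to 0.218 for MXD3, -0.249 to 0.0794 for MLX and -0.473 to 0.0536 for MXD1. The cause of these turns was not tested. No paired analysis was possible because the clone names are not shared between groups. With 4 clones a group, changes of 1 on the log2 scale were often missed in simulated counts.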
